A study of Drosophila melanogaster with 2 samples.

Results

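HeT-A, TAHRE and TART are the retrotransposons that maintain the chromosome ends of Drosophila melanogaster, and the piRNA reads counted for them were compared between ovaries of 2 pelo genotypes. The features were chosen by name from the deposited piRNA tables. They are HeT-A, TAHRE, TART, Dyak\TART and TART_B1, which make 5 telomeric features, and TART-CTART-ATART-BTirant, a name in which TART-C, TART-A, TART-B and Tirant have run together and which is reported apart. These 6 features were found in both libraries, among 1364 piRNA features in all. All 6 had at least 50 reads summed over the libraries and were therefore among the 438 features tested. The RNA was 18 to 30 nt long and came from ovaries dissected by hand out of females 3 to 5 days old. The pelo1/+ library came from females with allele 1 over a normal copy of pelo, and the peloPB60/1 library from females with allele PB60 over the same allele 1. Allele 1 was thus carried by the controls too. The gene pelo encodes Pelota, which helps to release stalled ribosomes, and is needed in the female germline. Each genotype had 1 library, so no difference below has a replicate check and no p-value is given. The labels do not say how many females were dissected.

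Drosophila lacks telomerase, and its chromosome ends are rebuilt by targeted insertion of HeT-A, TAHRE and TART, which belong to the jockey clade of non-LTR retrotransposons. HeT-A encodes a Gag protein but no reverse transcriptase. TART encodes Gag and a reverse transcriptase, and TAHRE combines HeT-A-like sequence with a reverse transcriptase of its own. In the ovary these elements are silenced in the germline by piRNAs, short RNAs that guide Piwi-family proteins to matching transcripts, while the surrounding follicle cells direct piRNAs mostly against gypsy-type elements.

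The piRNA tables held 5229331 reads in pelo1/+ and 4872519 reads in peloPB60/1, while 1819781 and 1999224 reads had been counted for miRNAs. Levels are in CPM, which is a feature's reads per 1000000 reads in its table. Intervals are 95% exact (Clopper-Pearson) intervals. They cover counting error only, since the reads carry no molecular identifiers and spread between ovaries was not measured. A feature was called lower or higher in peloPB60/1 when the 2 levels were at least 2-fold apart and the interval of their ratio left out equality. The tables hold raw read counts without strand, position or read length. They cannot show the strand or ping-pong partner of a telomeric piRNA, set piRNAs apart from siRNAs of the same element, or whether a read matched more than a single element.

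HeT-A and TAHRE were lower in peloPB60/1 and TART was nearly level, so the elements of the chromosome ends did not move together. TAHRE, the most read of the telomeric features in pelo1/+, had 144387 reads there, or 27611 CPM. In peloPB60/1 it had 69315 reads, or 14226 CPM. Its level in peloPB60/1 was 0.515 times that in pelo1/+ (log2 ratio -0.96, interval -0.97 to -0.94), just short of the 2-fold rule. HeT-A, whose Gag protein localises to telomeres, had 74487 reads, or 14244 CPM, in pelo1/+ and 40393 reads, or 8290.0 CPM, in peloPB60/1. This was 0.582 times its control level (log2 ratio -0.78, interval -0.80 to -0.76). Both features thus had a smaller share of the reads in peloPB60/1, each by less than 2-fold. In whole-ovary RNA, fewer cells of a type and less piRNA per cell cannot be told apart. With 1 library per genotype, the pelo alleles also cannot be told apart from any other difference between the libraries, such as genetic background.

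TART had almost equal numbers of reads in both libraries, 122360 in pelo1/+ and 122505 in peloPB60/1. This was 23399 and 25142 CPM, a log2 ratio of 0.10 (interval 0.09 to 0.12). The feature Dyak\TART, named for the TART of Drosophila yakuba, had 89315 reads in pelo1/+ and 93960 reads in peloPB60/1. It stood at 17080 and 19284 CPM, with a log2 ratio of 0.18 (interval 0.16 to 0.19). TART_B1 was the least read of the TART features, with 11255 and 11891 reads, 2152 and 2440.4 CPM and a log2 ratio of 0.18 (interval 0.14 to 0.22). All 3 TART features were therefore slightly higher per piRNA read in peloPB60/1. With counts scaled to the miRNA total, their log2 ratios turned to -0.13, -0.063 and -0.056. Reads that match several TART sequences could have been counted for any of them, so these 3 values are not independent measurements.

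**Figure D1:**
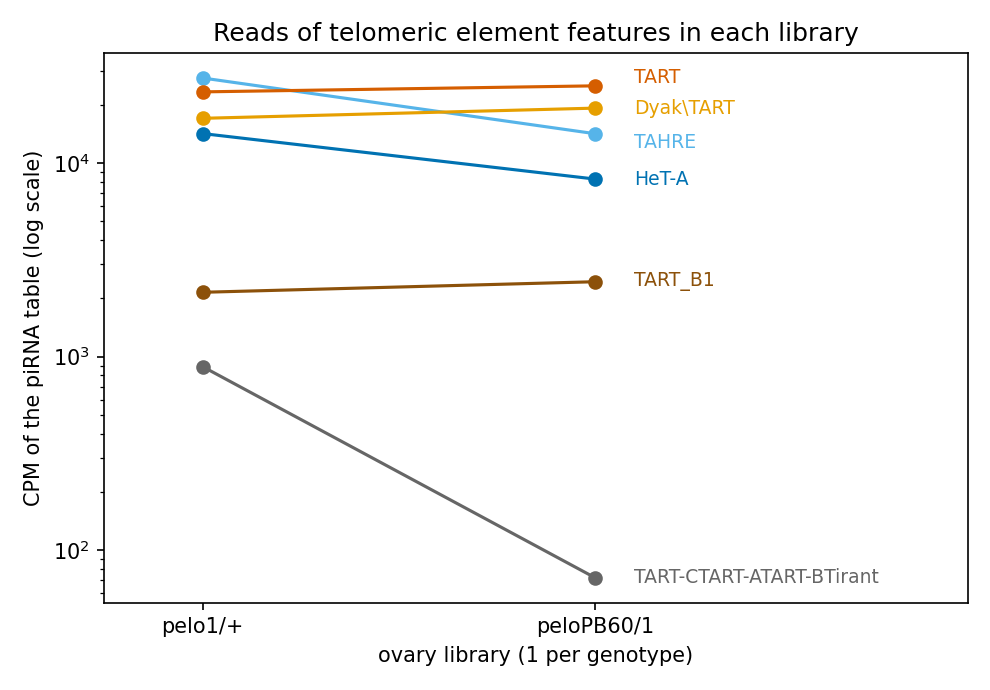
Level of each feature in CPM of the piRNA table (log axis) in the 1 pelo1/+ and the 1 peloPB60/1 ovary library, with a line joining the 2 values of a feature. TAHRE goes from 27611 to 14226 CPM and HeT-A from 14244 to 8290.0 CPM, TART, Dyak\TART and TART_B1 run almost flat, and the run-together name goes from 888.4 to 72.04 CPM.

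None of the 5 telomeric features was called. Of the 438 tested features, 15.8% were called lower and 2.97% higher. Among the 94 features with at least 10000 summed reads, a class that holds all 5, the shares were 6.38% and 3.19%. With shares this small, the absence of calls among 5 features does not set them apart from the other abundant features. The median log2 ratio of the 5 features was 0.10, against -0.22 over the 438 and 0.12 over the 94. This median falls on TART and describes neither HeT-A nor TAHRE. Ordered by log2 ratio from the lowest among the 94, TAHRE stood at position 8 and HeT-A at position 10, while TART, Dyak\TART and TART_B1 stood at 45, 51 and 54. Among all 438, where most rare features lay below 0, TAHRE was at position 73 and HeT-A at position 98. Their ratios were thus near the low end of the abundant features but not extreme among all features.

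**Figure D2:**
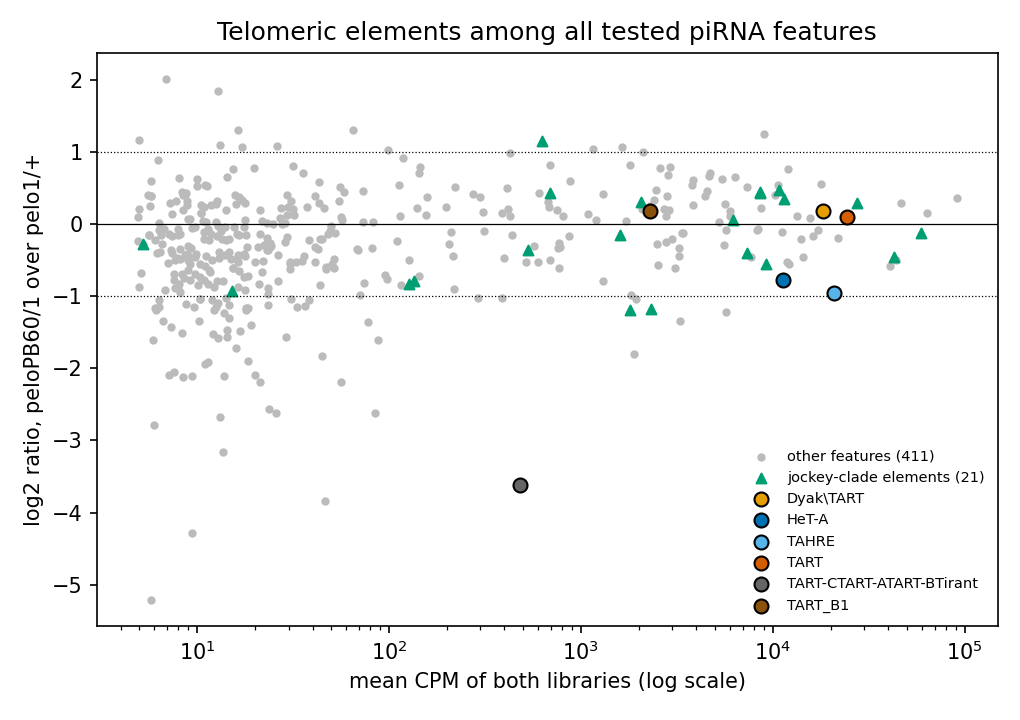
Log2 ratio of peloPB60/1 over pelo1/+ against the mean CPM of both libraries (log axis) for the 438 tested piRNA features, with dotted lines at 2-fold. TAHRE (-0.96) and HeT-A (-0.78) lie just above the lower dotted line, the 3 TART features lie just above 0, and the run-together name lies at -3.62.

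In order of read number, TAHRE went from rank 8 of 1127 features in pelo1/+ to rank 17 of 1097 in peloPB60/1, and HeT-A from rank 20 to rank 33. TART held ranks 10 and 9, Dyak\TART ranks 13 and 12, and TART_B1 ranks 76 and 74. In pelo1/+ the order among the telomeric features was TAHRE, TART, Dyak\TART, HeT-A and TART_B1. In peloPB60/1 it was TART, Dyak\TART, TAHRE, HeT-A and TART_B1, so both main TART features had passed TAHRE. The order of neighbours was within counting error for TART and the Rt1a element in pelo1/+, at 23399 and 23394 CPM. The same held for Dyak\TART and the DNA transposon 1360 in pelo1/+. TAHRE and HeT-A differed from the features ranked next to them by more than counting error in both libraries. These ranks order read numbers and not levels per length.

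Summed, the 5 telomeric features took 8.45% of the piRNA reads in pelo1/+ (interval 8.42 to 8.47) and 6.94% in peloPB60/1 (interval 6.92 to 6.96). The share in peloPB60/1 was 0.821 times that in pelo1/+. HeT-A and TAHRE together accounted for 4.19% and 2.25% of the reads, and the 3 TART features for 4.26% and 4.69%. In CPM, the HeT-A and TAHRE sum fell by 19339, while the TART sum was 4235 higher. The lower telomeric share in peloPB60/1 was therefore made up by HeT-A and TAHRE, in part offset by TART.

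The make-up of the telomeric reads moved accordingly. TAHRE gave 32.7% of the reads of the 5 features in pelo1/+ and 20.5% in peloPB60/1, and HeT-A gave 16.9% and 11.9%. TART gave 27.7% and 36.2%, Dyak\TART 20.2% and 27.8%, and TART_B1 2.55% and 3.52%. The TART features together went from 50.5% to 67.5%, from about as many reads as HeT-A and TAHRE to a clear majority. This reading depends on counting Dyak\TART and TART_B1 with TART. The feature TART alone had 122360 reads in pelo1/+, where HeT-A and TAHRE summed to 218874. In peloPB60/1 it had 122505 reads against 109708, so it was only slightly ahead.

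**Figure D3:**
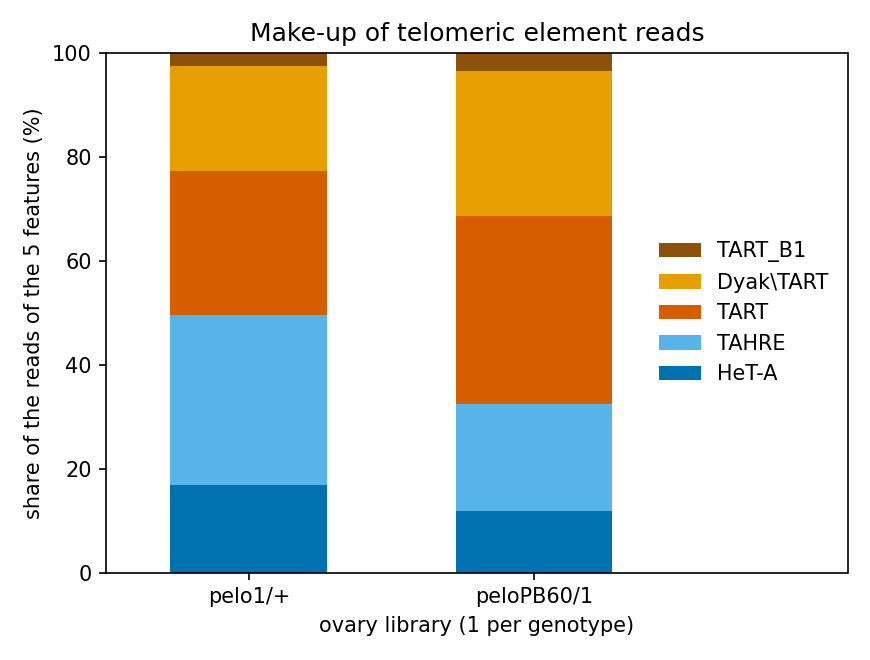
Share of each feature in the reads of the 5 telomeric features, in percent, in each library. HeT-A and TAHRE fill 16.9% and 32.7% of the bar in pelo1/+ and 11.9% and 20.5% in peloPB60/1, and the TART features fill the rest.

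Ratios between elements within a library do not depend on how the libraries are scaled. There were 1.64 TART reads per HeT-A read in pelo1/+ (interval 1.63 to 1.66) and 3.03 in peloPB60/1 (interval 3.00 to 3.07), a 1.85-fold difference (interval 1.82 to 1.87 by the normal approximation of the log ratio). TART reads per TAHRE read were 0.847 (interval 0.841 to 0.854) and 1.77 (interval 1.75 to 1.78), 2.09-fold apart (interval 2.06 to 2.11 by the same approximation). TAHRE and HeT-A, which share sequence, stayed closer to each other. There were 1.94 TAHRE reads per HeT-A read in pelo1/+ and 1.72 in peloPB60/1, which is 0.885 times as many. Within the TART features the ratios were closer still. Dyak\TART had 0.730 and 0.767 reads per TART read, and TART_B1 had 0.0920 and 0.0971. The ratios between the libraries were 1.05 and 1.06. The division between the libraries thus ran between HeT-A and TAHRE on the one side and the TART features on the other.

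A longer element offers more sequence for reads to match, so HeT-A and TART were also set side by side per length. How long the sequences matched by the submitters were is not stated in the labels. In the Ensembl annotation of BDGP6, a later build than the BDGP5 named in the submitters' notes, 27 copies of HeT-A are listed, 15 of them on chromosome 4 and 10 on X. The longest HeT-A copy has 6084 bp. The annotation lists 10 copies of TART-A, 5 of them on chromosome 4, the longest with 12349 bp. It lists 3 copies of TART-B and 1 of TART-C, all shorter than 1 kb. Per kb of the longest annotated copies, HeT-A stood at 2341 CPM in pelo1/+ and TART at 1895, so HeT-A was the higher. In peloPB60/1 HeT-A stood at 1363 CPM per kb and TART at 2036, so the order was turned. TART per HeT-A was 0.809 and 1.49 on this scale. These levels rest on the annotated lengths, but the change between the libraries does not. They also count the feature TART alone, at 23399 CPM in pelo1/+, where the 3 TART features summed to 42631 CPM. The order of HeT-A and TART per kb in pelo1/+ therefore depends on how TART reads were split between names.

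The feature TART-CTART-ATART-BTirant differed more between the libraries than any of the 5 others. It had 4646 reads in pelo1/+, or 888.4 CPM, and 351 reads in peloPB60/1, or 72.04 CPM. It was 12.3-fold lower (log2 ratio -3.62, interval -3.79 to -3.47) and was called lower, as were 15.8% of the 438 tested features. It dropped from rank 96 to rank 155. Ordered by log2 ratio from the lowest, it stood at position 4 of all 438 tested features. Among the 147 features with at least 1000 summed reads it had the lowest log2 ratio. The next lowest of these, the LTR elements invader6 and invader3, had -1.81 and -1.35. There were 0.0380 reads of the run-together feature per TART read in pelo1/+ and 0.00287 in peloPB60/1. Tirant is an LTR retrotransposon and not telomeric, and which of the joined names the reads belong to is not known. TIRANT_LTR, the other feature with Tirant in its name, had 3 reads in pelo1/+ and 0 in peloPB60/1, at or under the 3 reads that a count of 0 allows. Adding the run-together feature to the TART sum moved its log2 ratio from 0.14 to 0.11.

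A further 6 features carry HeT-A or TART in their names and were all rare. Dyak\HeT-A had 407 reads in pelo1/+ and 296 in peloPB60/1, a log2 ratio of -0.36 (interval -0.58 to -0.14). Dvir\TART, named for Drosophila virilis, had 398 and 293 reads and a log2 ratio of -0.34 (interval -0.56 to -0.12). Dvir\Het-A had 137 and 99 reads, with -0.36 (interval -0.75 to 0.02). None of these 3 was called. HET-A_DV had 16 reads in each library, TART_DV had 3 and 2, and HETA had 1 and 0, all too few for a ratio. Dyak\TART was thus the only feature with the tag of another species among the names of telomeric elements that was abundant.

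The other jockey-clade elements, which are dispersed along the chromosomes, spanned a wide range. Of 21 found, 1 was called higher, 2 were called lower and 18 were neither, with log2 ratios from -1.19 to 1.15 and a median of -0.15. Over all 438 features, 2.97% were called higher and 15.8% lower. The most read of them were F-element at -0.13, Doc at -0.45, X-element at 0.29 and G-element at 0.34. Both called lower, Juan and BS3, had lower ratios than TAHRE, at -1.18 and -1.19, and Helena was called higher at 1.15. Juan, BS3 and Helena are named here after their values were seen, since they are the calls of this list. HeT-A, TAHRE and TART all lay inside the range of their clade. Summed, the jockey-clade share of the reads was 20.6% in the pelo1/+ library and 19.6% in the other. Of 10 other non-LTR elements none was called, with a median of -0.21. R1A1-element, which inserts into ribosomal DNA, was at 0.36 and Rt1b at -0.50.

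Elements of the germline and of follicle cells were read in both libraries, and none of either list was at 0. Of 10 LTR elements silenced mainly in the germline, where the telomeric elements are silenced too, none was called. Of the 94 abundant features, 6.38% were called lower and 3.19% higher. Of the germline list 7 lay above 0 and 3 below, from -0.58 to 0.78 with a median of 0.08. Max-element was at 0.15 and GATE at 0.30, while roo, mdg3 and opus lay on the side of HeT-A and TAHRE, at -0.58, -0.45 and -0.09. These last 3 are named after their values were seen, as the members below 0. The summed level of all 10 germline LTR elements was 195431 CPM in pelo1/+ and 194971 CPM in peloPB60/1. Of 9 elements targeted mainly in follicle cells none was called and 8 lay above 0, as did 55 of the 94 abundant features, and the median was 0.39. Among them gypsy6 was at 0.12 and Tabor at 0.52. The summed level of all 9 follicle cell elements was 41953 CPM in pelo1/+ and 52075 CPM in peloPB60/1. HeT-A and TAHRE were lower, and the summed follicle cell level was higher. The summed germline LTR level was nearly equal, but its members lay on both sides of 0. These comparisons of sums hold with the piRNA total. Scaled to the miRNA total, the log2 ratio of the germline LTR sum was -0.24 and that of the follicle cell sum 0.07. Outside these lists, abundant LTR elements such as invader6 (-1.81), invader3 (-1.35) and rooA (-1.22) had lower ratios than TAHRE. These too are named after their values were seen. The part of cell composition in the HeT-A and TAHRE values was not tested.

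**Figure D4:**
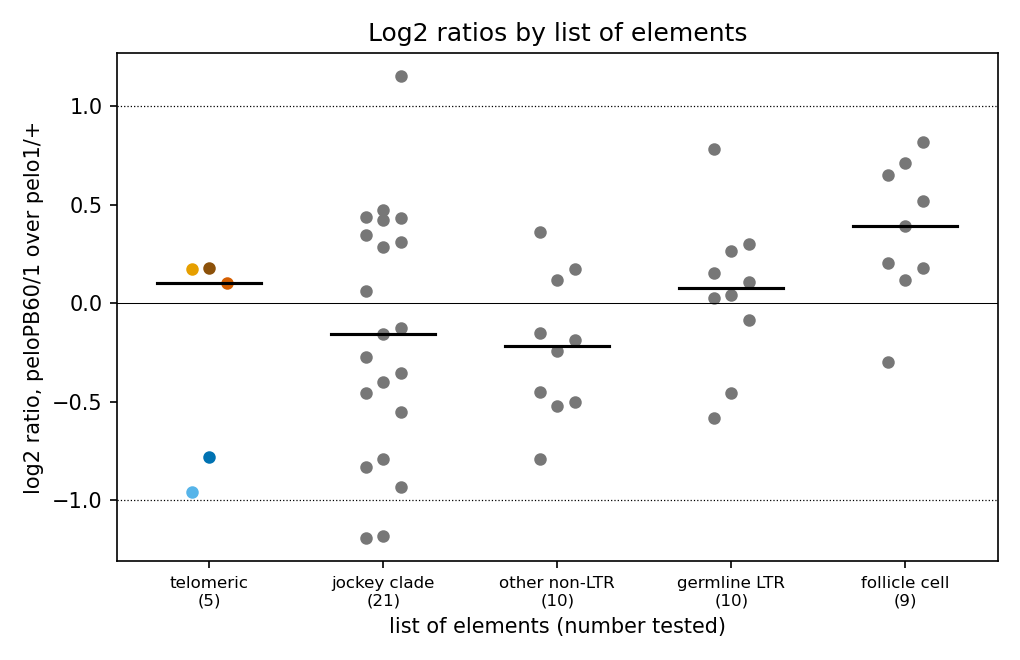
Log2 ratio of peloPB60/1 over pelo1/+ for each tested element, grouped by list, with the list median as a bar and dotted lines at 2-fold. TAHRE and HeT-A (light and dark blue) lie at -0.96 and -0.78, below the 10 germline LTR and 9 follicle cell elements of these lists. Some jockey-clade elements lie lower still. So do abundant LTR elements that are in none of the lists and not drawn, such as invader6 (-1.81), invader3 (-1.35) and rooA (-1.22).

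Among abundant features outside the telomeric set, those with ratios most like each element were listed. Of 89 candidates with at least 10000 summed reads, Rt1c (-0.79) and invader2 (-0.61) were nearest to HeT-A. Copia-1_DYa-I (-0.99) and gypsy8 (-1.03) were nearest to TAHRE, and 3S18 (0.11) and accord (0.12) to TART. This likeness rests on the log2 ratio of 2 libraries alone.

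Set against miRNA reads, the 5 telomeric features had 242.8 reads per 1000 miRNA reads in pelo1/+ and 169.1 in peloPB60/1. The second value was 0.697 times the first (interval 0.693 to 0.700). For TAHRE these were 79.3 and 34.7 reads, for HeT-A 40.9 and 20.2, and for TART 67.2 and 61.3. On this scale HeT-A and TAHRE passed the 2-fold rule, with log2 ratios of -1.02 and -1.19, and so did 23.1% of the 438 features in the lower direction and 10.6% of the 94 abundant ones. The run-together feature was at -3.86 and was also called lower. The ratio of the sum moved with the miRNAs counted, among them miR-989, a follicle cell miRNA at 173893 CPM of the miRNA table in pelo1/+ and 443523 CPM in peloPB60/1. With miR-989 alone left out of the denominator the ratio was 1.03, and with the 10 most abundant hairpins left out it was 0.815. Without miR-989 the log2 ratios of HeT-A and TAHRE were still below 0, at -0.45 and -0.62, and TART was at 0.44. The other miRNA markers went different ways. Of the follicle cell miRNAs, miR-994 had a log2 ratio of -3.69 and miR-318 was nearly level at -0.05, from 16837 and 17818 reads. The log2 ratio of the germline miR-184 was 0.19 and that of the muscle miR-1 was 1.64, while miR-133, also of muscle, had 12 reads in each library.

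**Figure D5:**
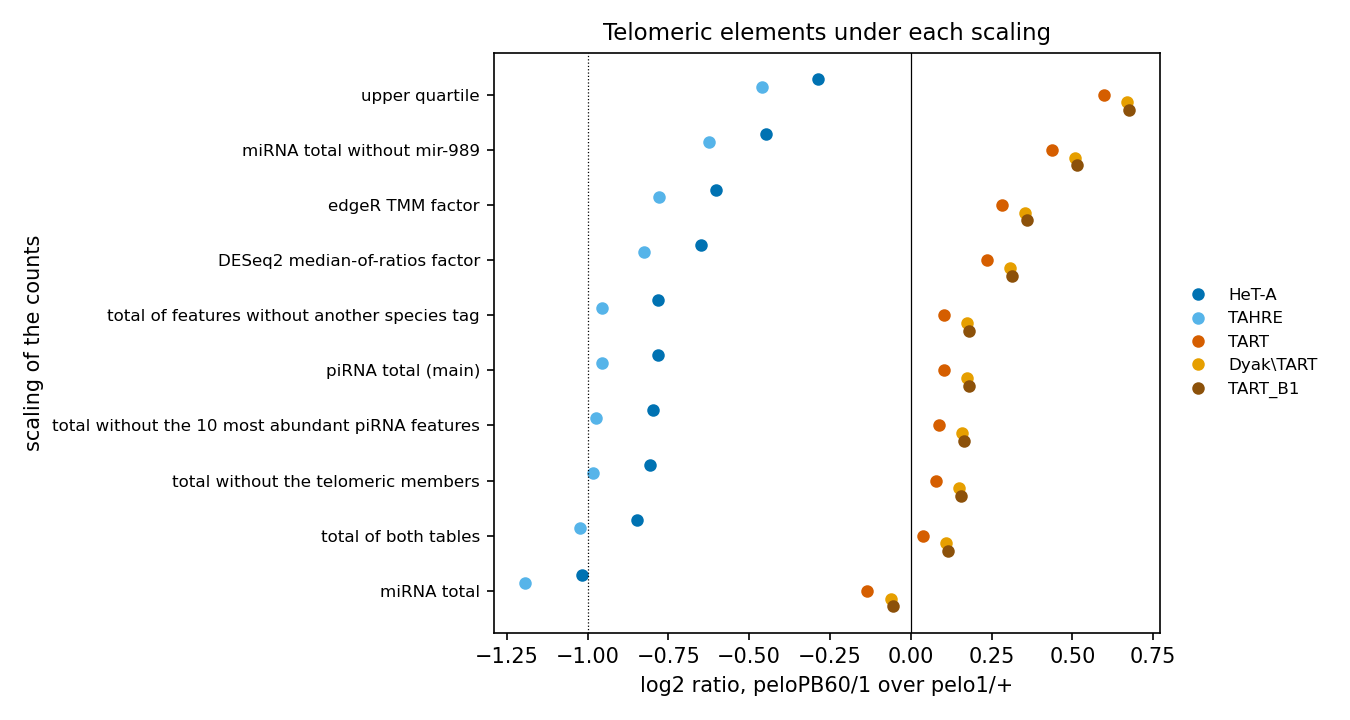
Log2 ratio of peloPB60/1 over pelo1/+ of the 5 telomeric features under each scaling of the counts, with a solid line at 0 and a dotted line at 2-fold lower. TAHRE and HeT-A lie left of 0 under every scaling drawn, from -1.19 to -0.46 and from -1.02 to -0.29, and the TART features lie right of 0 except with the miRNA total.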

How the data were processed

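Small RNA from 1 ovary library per genotype was counted by the authors into a miRNA and a piRNA table. The deposited values are raw read counts per hairpin, transposon, repeat or interval, with no normalization, per the file names and values. Per the submitters' processing notes, Bowtie 0.12.7 and BDGP5 were used, with no role stated for either. Which repeat sequences were matched, with how many mismatches, on which strand and how reads with several matches were counted is not given in the sources used here.

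Each count was divided by its table's total. Features absent from a table were given 0 counts. Log2 ratios of peloPB60/1 over pelo1/+ used 0.5 added counts and features with at least 50 summed counts. Their intervals, and those of shares, are exact Clopper-Pearson intervals of the unmodified counts (SciPy 1.17.1). No test was possible with 1 library per genotype. edgeR 4.0.16 and DESeq2 1.42.0 served only for alternative scaling factors. Simulated Poisson counts with known changes were used to check the computation. Named features are the members, features carrying their names, the most read members of each list and the nearest abundant features by log2 ratio. The members and lists were chosen with earlier results of these data known.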

Additional observations from a re-analysis of the deposited data

How the results depend on the processing

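No paired analysis was possible because a single library stands for each genotype, which also leaves no replicate to omit. Replication is the limit here and not depth, as HeT-A, TAHRE and TART each had at least 40393 reads per library.

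Scaling moved the median log2 ratio of all 438 features from -0.22 with the piRNA total to -0.28 with the total of both tables, -0.45 with the miRNA total, 0.12 with the miRNA total without miR-989, -0.04 with TMM, -0.08 with median-of-ratios factors and 0.28 with upper quartiles. Each member moved by the same shift. In that order of scalings, HeT-A had log2 ratios of -0.85, -1.02, -0.45, -0.60, -0.65 and -0.29, and TAHRE had -1.02, -1.19, -0.62, -0.78, -0.83 and -0.46. TART had 0.038, -0.13, 0.44, 0.28, 0.23 and 0.60. The sign of TART turned with the miRNA total, as did those of Dyak\TART (-0.063) and TART_B1 (-0.056). The run-together feature had -3.86 with the miRNA total, -3.29 without miR-989, -3.44 with TMM and -3.13 with upper quartiles. The 2-fold rule was passed by TAHRE under the total of both tables, and by TAHRE and HeT-A under the miRNA total. Without the 10 most abundant features in the total, TAHRE had -0.97 and TART 0.087. With the telomeric members left out of it, HeT-A, TAHRE and TART had -0.81, -0.98 and 0.079.

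The telomeric share ratio of 0.821 was 0.785 with the total of both tables, 0.743 among features without the tag of another species (which leaves out Dyak\TART), 0.730 for HeT-A, TAHRE and TART and 0.814 with the run-together feature. Per miRNA read, the ratio of 0.697 was 0.619 for HeT-A, TAHRE and TART, 0.690 with the run-together feature, 0.815 without the 10 most abundant hairpins and 1.03 without miR-989, which alone holds 886701 of the 1999224 miRNA reads of peloPB60/1. With the 3 TART features summed, the difference in TART reads per HeT-A read was 1.89-fold and per TAHRE read 2.13-fold. Without species-tagged features HeT-A ranked 19 and 32, and TAHRE ranked 16 in peloPB60/1.

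The 13 features called higher were 5 with the miRNA total, 30 without miR-989, 50 with upper quartiles, 25 with a filter of 1 or of 10 summed counts, 7 with a filter of 200, 37 at 1.5-fold and 1 at 4-fold. The 69 called lower were 39 without miR-989, 31 with upper quartiles, 25 with a filter of 200, 124 at 1.5-fold and 18 at 4-fold. Against these, 17 were called higher and 47 lower with TMM, and 101 were called lower with the miRNA total. Of 107 values under alternatives, 40 stayed the same, 63 moved and 4 changed direction. A value stayed the same when it was within its counting interval. For counts of features the limit was 1.5 times, and ranks had to be equal.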
